A study of Chlorella sp. HS2 with 12 samples.

Results

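The change of messenger RNA levels between exponential and stationary growth in marine medium was followed in Chlorella sp. HS2, a unicellular green alga grown on light and inorganic medium. It rests on 6 of the 12 libraries of the series, chosen by their titles: 3 marine exponential libraries, harvested on day 4 after inoculation, and 3 marine stationary libraries, harvested on day 6. The marine medium was an inorganic medium with 3% (w/v) added sea salt, and the matching freshwater groups, 3 libraries at each of the same days, had no sea salt added and are used only for contrast. All 4 groups were autotrophic cultures of the same strain, for which no genetic change is given, in agitated photobioreactors supplied with CO2. The series calls the 3 samples of a condition biological replicates. The genes are those of a de novo transcript assembly and are named by their best Swiss-Prot hit. Of 57640 genes in the matrix, 23351 had 15 or more counts summed over the 6 freshwater libraries and again over the 6 marine libraries, and these were tested. A product name was available for 4819 of them, 20.6%.

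Green algae that divide quickly spend much of their transcription on the photosynthetic apparatus, ribosomes and the mitotic cycle. When a batch culture reaches stationary phase, light per cell and dissolved nutrients fall, cells stop dividing, and carbon is often stored as starch or lipid. Nitrate enters through transporters and is reduced by nitrate reductase, an enzyme with a molybdenum cofactor, before the ammonium formed is built into glutamine. Light is gathered by nucleus-encoded chlorophyll a-b binding proteins, while core subunits of the photosystems, the large subunit of Rubisco and some respiratory subunits are made from the genomes of the plastid and the mitochondrion. Sequences of these genes were not used here.

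Marine libraries held 10271692 to 11201764 estimated counts, and 93.6% to 97.2% of them fell in tested genes. The 3 exponential libraries were close to each other: over well expressed genes, the median absolute difference of a pair was 0.0790 to 0.0977 on the log2 scale. Stationary replicates 1 and 2 differed by 0.0662, but replicate 3 stood 0.421 and 0.423 away from them, farther than the 0.336 to 0.369 that separated stationary from exponential libraries of the same number. Freshwater replicates of a group differed by 0.174 to 0.331. In the labels, the sample codes of the 3 exponential libraries share a stem, and so do those of stationary replicates 1 and 2. Whether a shared stem marks 1 culture is not stated, so p-values may measure spread that is partly technical. The counts of these close pairs differed by more than sampling noise, with a chi-square of 22.4 to 27.8 per degree of freedom. Freshwater pairs of a group had higher values, 33.5 to 60.8, and the pairs with stationary replicate 3 had 84.5 and 88.4. Whether the excess in the close pairs came from library preparation or from separate cultures was not tested. Results are therefore given with all libraries and, where it matters, without stationary replicate 3.

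Best hits to Viridiplantae, the green plants and algae, took 43.2% ± 0.279 of counts in exponential and 40.2% ± 1.81 in stationary libraries (SD, n = 3). Genes without a hit held 37.3% ± 0.285 and 41.0% ± 1.23 of counts, bacterial hits held 2.34% ± 0.0394 and 1.99% ± 0.0634, and fungal hits 2.80% ± 0.0714 and 4.10% ± 0.968. An exact permutation test of 3 against 3, on both sides, gave p = 0.1 for each of these lineages, the smallest value it can give. Of the bacterial markers, RNA polymerase subunit beta summed to 0 to 60.5 raw CPM (CPM, counts per 1000000 counts of a library, here before TMM scaling) in exponential and 10.1 to 44.9 in stationary libraries, and the 60 kDa chaperonin was at 0. Flagellin had 0.584 to 2.74 raw CPM in exponential and 3.21 to 10.4 in stationary libraries, without overlap. Elongation factor Tu had 0 to 4.55 raw CPM in exponential and 4.11 to 8.71 in stationary libraries. Outer membrane protein A was at 0 in exponential and at 0 to 9.58 raw CPM in stationary libraries. The part of bacterial RNA in the results was not tested. No animal vitellogenin, titin or hemoglobin was annotated. Green algal markers were present throughout: photosystem I subunits summed to 687 to 725 raw CPM in exponential and 984 to 1032 in stationary libraries. The higher fungal share moved with 1 gene, TRINITY_DN290_c2_g4, whose hit is the yeast product ART2, encoded opposite the ribosomal RNA genes in yeast. It had 2613, 2203 and 2813 CPM in the exponential libraries and 6455, 8207 and 27841 CPM in the stationary libraries, and all stationary libraries were higher, replicate 3 most. With hits limited to an E-value of at most 1e-20, which drops this gene, the fungal share was 2.07% and 2.08%.

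On entry into stationary phase, more genes were called lower than higher. All 12 libraries shared 1 estimate of the spread. Calls were made with edgeR's quasi-likelihood test, at a Benjamini-Hochberg false discovery rate, the FDR, under 0.05 over all tested genes. Of the 23351 genes, 95 were higher in stationary libraries, 0.407% of those tested, and 418 were lower, 1.79%. At an unadjusted p under 0.05, 1300 were higher and 1789 lower. Genes with lower levels were long and well expressed: their assembled length had a median of 3546.5 bases, that of the higher genes 1956 bases and that of all tested genes 412 bases. Among genes with a mean log2 level of at least 4, 56 were higher and 331 lower out of 5717. Names were available for 203 of the lower and 39 of the higher genes. Of the higher genes, 16 had no count in any exponential library, as had 3161 of all tested genes, and for those no fold change is given.

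The counts depended on the test and on which libraries entered it. DESeq2 called 943 higher and 1027 lower, 4.48% and 4.88% of the 21037 genes for which it gave a p-value. Without stationary replicate 3, edgeR called 209 higher and 1030 lower, 0.895% and 4.41%. Without exponential replicate 1, 2 or 3 in turn, 36, 33 and 30 were higher and 212, 196 and 194 lower, and without stationary replicate 1 or 2, 46 and 43 were higher and 158 and 166 lower. With libraries of a shared stem summed to 1 sample each, edgeR called 0 in either direction, with 163 higher and 986 lower at an unadjusted p under 0.05, while DESeq2 called 495 higher and 375 lower, 2.20% and 1.66%. In simulated libraries, 0% of genes changed 1.5-fold, 22% of genes changed 2-fold and 84% of genes changed 4-fold were recovered for this comparison. The changed genes were all drawn from well expressed ones, and for those, changes under about 2-fold were mostly not detectable. The median tested gene had a mean of 3.38 CPM in marine libraries, after TMM scaling, so these rates do not cover most genes. Simulated libraries were drawn as independent replicates, which the marine libraries may not be.

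Replicate 3 was compared with replicates 1 and 2 over the called genes, which were called with it in the fit. Of the 418 lower genes, 388 were also called without it. The lower genes had a median log2 change of -1.23 in replicates 1 and 2 and -0.90 in replicate 3, and replicate 3 lay above both of the others in 268 of them. The 95 higher genes had medians of 1.91 in replicates 1 and 2 and 2.06 in replicate 3. Over all 5717 well expressed genes, 59.98% had the same sign of change in replicate 3 as in replicates 1 and 2, with a correlation across genes of 0.436. These values share the exponential libraries, and genes are not independent replicates.

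**Figure D1:**
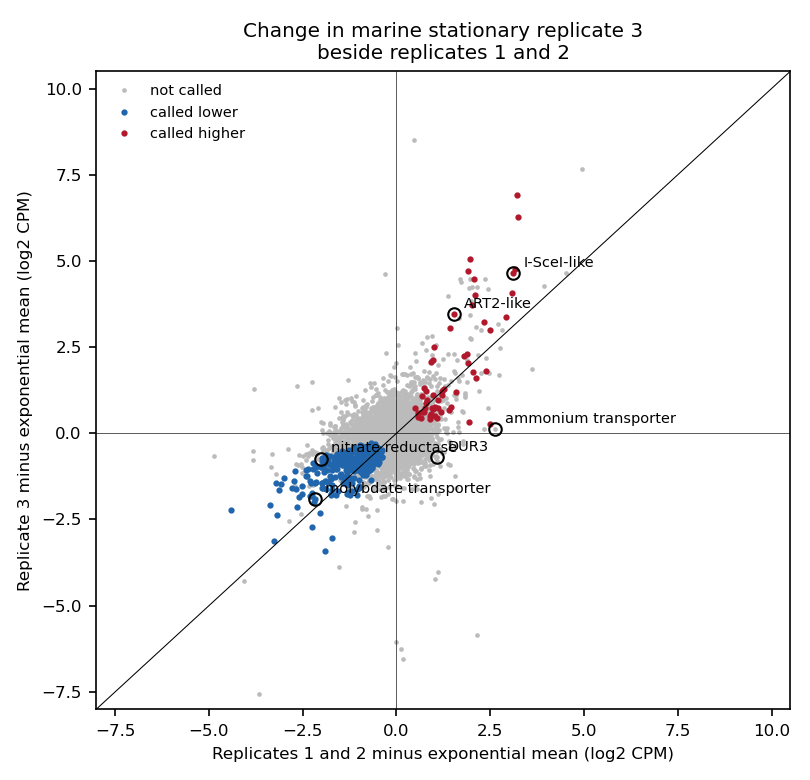
Each point is 1 of 5717 genes with a mean log2 level of at least 4. The horizontal axis gives the mean of marine stationary replicates 1 and 2 minus the mean of the exponential libraries, and the vertical axis gives replicate 3 minus the same mean (log2 CPM). Blue points are the 331 genes called lower, red points the 56 called higher, and the line marks equality. Called-lower genes lie mostly above the line, replicate 3 being above both other libraries in 268 of all 418 of them, and the ammonium transporter lies far to the right with a change near 0 in replicate 3.

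Levels from here on are CPM after TMM scaling, given for replicates 1, 2 and 3 in that order. Log2 fold changes are stationary over exponential with their standard errors. The median log2 fold change of all tested genes was 0.23, and that of named genes -0.10. The median over all genes was 0.31 with DESeq2 size factors and 0.04 with a scaling matched to the authors' deposited table, so changes of a list under about 0.3 depend on the scaling.

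Several genes of mitosis and of the division of the cell and plastid fell steeply, to low levels in all 3 stationary libraries. TRINITY_DN5338_c0_g1, best hit cyclin-dependent kinase B1-1, a plant-type kinase of the entry into mitosis, had 24.7, 28.7 and 22.95 CPM in the exponential libraries and 1.06, 0.763 and 1.26 CPM in the stationary libraries. The groups were far apart, with a level 24.6-fold lower in stationary phase (log2 fold change -4.62 ± 0.87, FDR 0.0232). TRINITY_DN6745_c0_g1, which resembles chitin synthase 2, an enzyme that yeast uses to build the septum between dividing cells, had 36.3, 36.7 and 37.02 CPM in the exponential libraries and 0.355, 0.347 and 0.989 CPM in the stationary libraries. It was 65.3-fold lower, and all stationary libraries were near 0 (log2 fold change -6.03 ± 0.83, FDR 0.00571). Dynamin-like protein ARC5 (TRINITY_DN6195_c0_g1), which pinches the plastid apart in plants, had 16.1, 17.8 and 14.6 CPM in the exponential libraries and 1.06, 0.971 and 0.989 CPM in the stationary libraries. It too was low in each stationary library (log2 fold change -3.99 ± 0.60, FDR 0.00884). Chitin synthase was also a fungal marker here: such genes summed to 576 to 626 raw CPM in exponential and 284 to 351 in stationary libraries, no gene was annotated as the other fungal marker, glucan synthase, and the part of fungal RNA was not tested. The kinase, ARC5 and this chitin synthase were singled out after their values were seen, as were the motor and kinetochore genes below. In RNA from a whole culture, fewer dividing cells and less of these RNAs per cell cannot be told apart.

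Kinesins are motors that move along microtubules. Of 18 tested kinesins, 0 were higher and 3 lower, with a median log2 fold change of -1.06. Together they summed to 789.9 to 809 CPM in exponential libraries and to 580.2, 577 and 776 CPM in stationary replicates 1, 2 and 3, so that replicate 3 lay close to the exponential level. KIN-14F (TRINITY_DN2582_c0_g3) went from 6.95, 7.92 and 7.85 to 0.355, 0.416 and 0.450 CPM (log2 fold change -4.18 ± 0.68, FDR 0.0128). KIN-7I (TRINITY_DN1770_c0_g1) went from 7.35, 7.999 and 7.33 to 0.142, 0.347 and 0.360 CPM (log2 fold change -4.69 ± 0.95, FDR 0.0332). KIN-12F (TRINITY_DN2318_c0_g3), whose plant relatives act at the division plane, went from 15.2, 15.1 and 14.3 to 1.70, 1.87 and 1.80 CPM (log2 fold change -3.05 ± 0.63, FDR 0.0344). For these 3 motors no stationary library, replicate 3 included, reached an exponential one. Of 25 genes of the kinetochore, the spindle checkpoint and chromosome condensation, 0 were higher and 2 lower, with a median of -0.25. The lower genes were a homolog of NDC80 (TRINITY_DN38235_c0_g1), which ties chromosomes to spindle fibres, from 11.7, 13.6 and 11.8 to 1.13, 1.18 and 0.899 CPM (log2 fold change -3.51 ± 0.73, FDR 0.0361), and a gene with a hit to bub1, a spindle checkpoint protein (TRINITY_DN7656_c0_g1), from 10.7, 9.32 and 9.92 to 0.993, 1.18 and 1.17 CPM (log2 fold change -3.15 ± 0.68, FDR 0.042). Both lists were drawn up after values were seen.

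Few genes that copy DNA passed the test. In the list of DNA replication and cell division, 0 of 63 were higher and 4 lower, with a median of -0.03, and 10 were lower at an unadjusted p under 0.05. DNA polymerase epsilon catalytic subunit A (TRINITY_DN9922_c0_g1), which copies the leading strand, had 11.8, 13.3 and 11.9 CPM in the exponential libraries and 1.77, 1.53 and 1.08 CPM in the stationary libraries (log2 fold change -3.07 ± 0.61, FDR 0.0295). A gene with a weak hit to the yeast mitotic exit kinase CDC15 (TRINITY_DN618_c0_g2) had 82.8, 85.9 and 80.2 CPM in the exponential libraries and 9.29, 9.57 and 29.7 CPM in the stationary libraries (log2 fold change -2.36 ± 0.43, FDR 0.0201). Replicate 3 kept about 3 times the level of the others in the CDC15-like gene, and was the lowest for the polymerase. The small chain of ribonucleotide reductase (TRINITY_DN23_c2_g2), which makes deoxynucleotides, fell by less (log2 fold change -0.58 ± 0.12, FDR 0.0405). With assembly components summed, changes were smaller. The component of the CDC15-like gene, with 4 tested genes, had a log2 fold change of -0.56, FDR 0.0448. That of the reductase chain, with 3 tested genes, had -0.34 and was not called, FDR 0.397. Among 17 replicative polymerase and MCM helicase genes, a list made after values were seen, the polymerase was the 1 gene called. Of 11 histone genes, 1 was called: histone H4 (TRINITY_DN3934_c0_g2) rose from 69.3, 61.2 and 73.6 to 141, 125 and 110.2 CPM (log2 fold change 0.88 ± 0.17, FDR 0.0271), while the list's median was -0.47.

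The calls of ARC5 and the chitin synthase held without each of the 12 libraries in turn. Leaving out 1 library of a shared stem keeps the others of that stem. Calls that held this way, here and below, may therefore still rest on 1 culture per stem. That of KIN-14F was lost without marine stationary 1 or 2 (FDR up to 0.0557). Those of the kinase and the polymerase were lost without marine exponential 1, 2 or 3 or marine stationary 1 or 2 (FDR up to 0.107) and without marine exponential 1, 2 or 3 or marine stationary 1 or 2 (FDR up to 0.109), and CDC15-like without marine exponential 2 or 3 or marine stationary 1 or 2 (FDR up to 0.0649). KIN-7I was lost without marine exponential 1, 2 or 3, marine stationary 1 or 2, freshwater exponential 1, 2 or 3 or freshwater stationary 1 (FDR up to 0.129). KIN-12F was lost without marine exponential 1, 2 or 3, marine stationary 1, 2 or 3, freshwater exponential 2 or 3 or freshwater stationary 1 (FDR up to 0.128). The NDC80 homolog was lost without marine exponential 1, 2 or 3, marine stationary 1, 2 or 3, freshwater exponential 1, 2 or 3 or freshwater stationary 1 (FDR up to 0.13), and the bub1-like gene without marine exponential 1, 2 or 3, marine stationary 1, 2 or 3, freshwater exponential 1, 2 or 3 or freshwater stationary 1 (FDR up to 0.151). The ribonucleotide reductase chain was lost without marine exponential 1, 2 or 3, marine stationary 1 or 2, freshwater exponential 2 or freshwater stationary 2 or 3 (FDR up to 0.156), and histone H4 without marine exponential 1, 2 or 3 or marine stationary 1 or 2 (FDR up to 0.141). Without stationary replicate 3 itself, the log2 fold changes were -4.76 with an FDR of 0.0361 for the kinase, -3.02 with an FDR of 0.0502 for KIN-12F and -3.38 with an FDR of 0.0623 for the NDC80 homolog.

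**Figure D2:**
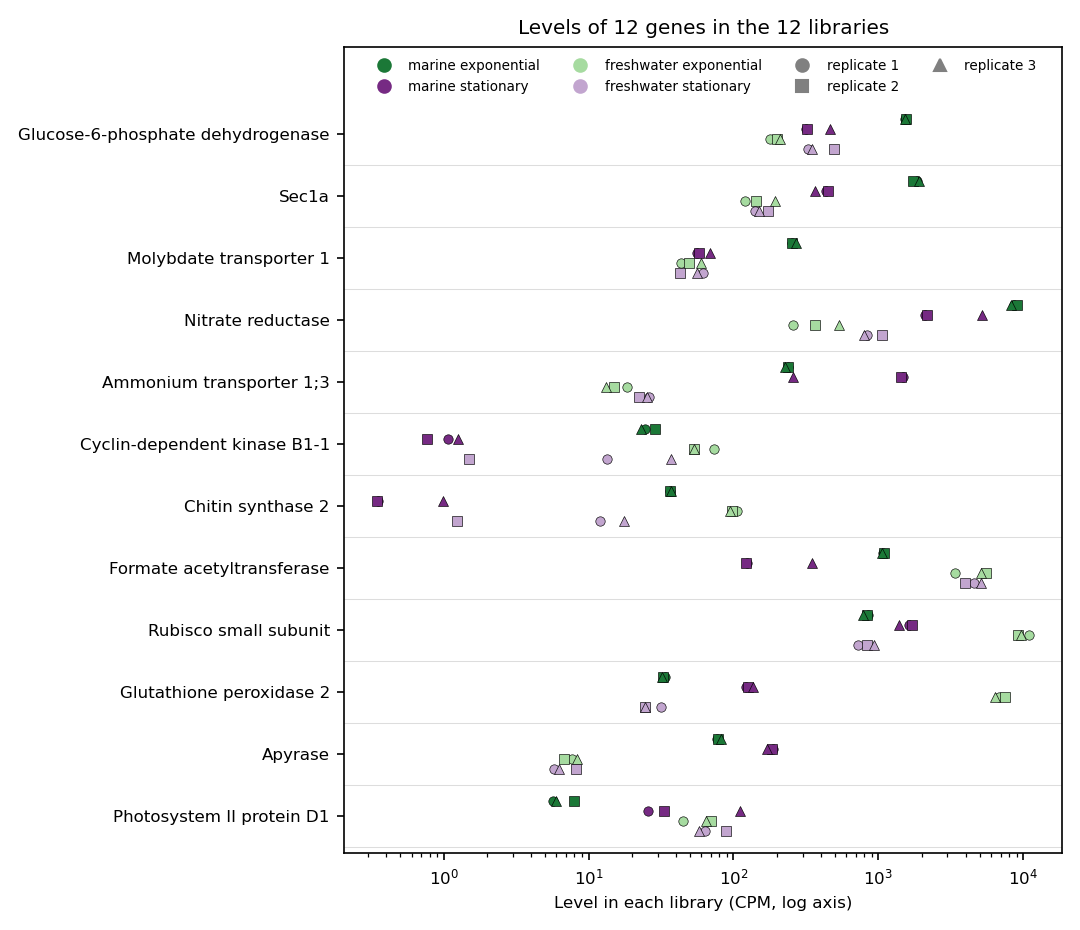
Levels of 12 genes in all 12 libraries on a log axis (CPM). Colours mark the 4 groups and shapes the replicates 1, 2 and 3. For the cyclin-dependent kinase and the chitin synthase the 3 purple marine stationary points lie near 1 CPM or below, far from the dark green exponential points, while for nitrate reductase and the ammonium transporter the triangle of stationary replicate 3 stands apart from replicates 1 and 2.

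No antenna gene passed the test in marine medium. The 24 tested chlorophyll a-b binding genes summed to 2607 to 3027 CPM in exponential libraries and 3389 to 5365 CPM in stationary libraries, replicate 3 being the highest. None was called by edgeR in either direction, 11 were higher at an unadjusted p under 0.05, and DESeq2 called 11 higher and 0 lower. Their median log2 fold change was 0.54, with a median of 0.35 under the authors' scaling. Chlorophyll a-b binding protein 3 (TRINITY_DN2252_c0_g2) had 1538, 1357 and 1542 CPM in the exponential libraries and 1498, 1502 and 2627 CPM in the stationary libraries (log2 fold change 0.34 ± 0.42, FDR 0.834). Replicates 1 and 2 lay inside the exponential range and replicate 3 above it. Larger values that missed the threshold were seen in others, picked after their values were seen. A type 2 member 1A gene (TRINITY_DN2252_c0_g4) had 53.3, 58.9 and 48.9 CPM in the exponential libraries and 203, 213 and 364 CPM in the stationary libraries (log2 fold change 2.28 ± 0.53, FDR 0.0588), and an LHCII type I gene (TRINITY_DN546_c0_g2) had 26.7, 29.2 and 63.1 CPM in the exponential libraries and 178, 143 and 316 CPM in the stationary libraries (log2 fold change 2.42 ± 0.56, FDR 0.0559). In both, every stationary library was above every exponential one. The type 2 member 1A gene shares an assembly component with chlorophyll a-b binding protein 3. That component, with 4 tested genes, had a log2 fold change of 0.45 when summed and was not called, FDR 0.504. The antenna genes belong to 1 gene family, in which reads can be shared between members. How such reads were split among them was not tested.

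Photosystem subunits made from the plastid genome are given apart from the others. Of 35 genes of the photosystems and electron transport, 6 were higher and 1 lower, with a median of 0.78 that includes 12 plastid-genome products. The 23 members that are not products of the plastid genome summed to 2008 to 2085 CPM in exponential and 2160 to 2258 CPM in stationary libraries, and their median was 0.34. Of these, 2 were higher and 1 lower. Photosystem I subunit XI (TRINITY_DN5791_c0_g1), which links the complex into trimers in cyanobacteria, rose from 53.6, 51.2 and 59.7 to 87.4, 95.5 and 137 CPM (log2 fold change 0.96 ± 0.20, FDR 0.0403). Photosystem I subunit O (TRINITY_DN3708_c0_g1), a docking site for antenna in plants, rose from 14.2, 13.2 and 14.6 to 21.9, 24.00 and 30.4 CPM (log2 fold change 0.86 ± 0.18, FDR 0.0361). Cytochrome c6 (TRINITY_DN7712_c0_g1), an electron carrier to photosystem I, fell from 15.8, 11.5 and 14.1 to 7.23, 7.63 and 6.83 CPM (log2 fold change -0.93 ± 0.19, FDR 0.0298). None of these groups overlapped, but the first call was lost without marine exponential 1, 2 or 3, marine stationary 2, freshwater exponential 1, 2 or 3 or freshwater stationary 2 (FDR up to 0.126), the next without marine exponential 1, 2 or 3, marine stationary 1 or 2, freshwater exponential 1, 2 or 3 or freshwater stationary 2 (FDR up to 0.122) and that of cytochrome c6 without marine exponential 1 or 3, marine stationary 1 or 2 or freshwater exponential 2 (FDR up to 0.118).

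Products of the plastid genome were at low levels in exponential libraries. Of 30 tested genes with hits to such products, a list made after values were seen, 5 were higher and 0 lower. No count was seen in any exponential library for 3 of them, and such members passed the filter through the stationary libraries, so the direction of the group is given as a description with no support drawn from it. Their summed level was 38.0, 39.1 and 45.6 CPM in the exponential libraries and 123, 167 and 395 CPM in the stationary libraries. Replicate 3 was the highest stationary library for 28 of the 30. Without it, 5 were called higher. Photosystem II protein D1 (TRINITY_DN51627_c0_g1), the reaction centre protein that is continually replaced in light, had 5.66, 7.999 and 5.95 CPM in the exponential libraries and 25.7, 33.2 and 111 CPM in the stationary libraries (log2 fold change 3.11 ± 0.51, FDR 0.0128). All stationary libraries were higher, and replicate 3 was more than 3 times the others.

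The chlorophyll proteins CP47 and CP43, which lie beside D1 in photosystem II and here share an assembly component, moved the same way. CP47 (TRINITY_DN419_c0_g2) had 1.45, 2.31 and 3.71 CPM in the exponential libraries and 10.8, 14.9 and 43.1 CPM in the stationary libraries (log2 fold change 3.20 ± 0.55, FDR 0.0152), and CP43 (TRINITY_DN419_c0_g3) had 4.53, 4.78 and 4.83 CPM in the exponential libraries and 12.6, 18.9 and 52.3 CPM in the stationary libraries (log2 fold change 2.56 ± 0.48, FDR 0.0217). Subunit alpha of cytochrome b559 (TRINITY_DN24305_c0_g1) was lower in level, with 0.323, 0.330 and 0.518 CPM in the exponential libraries and 2.41, 4.16 and 8.72 CPM in the stationary libraries (log2 fold change 3.67 ± 0.77, FDR 0.0385). In each of these, all stationary libraries were above the exponential ones and replicate 3 was the highest. The large chain of Rubisco (TRINITY_DN1417_c0_g4), the enzyme that fixes CO2, had 1.70, 1.57 and 0.949 CPM in the exponential libraries and 7.87, 9.57 and 14.02 CPM in the stationary libraries (log2 fold change 2.89 ± 0.34, FDR 0.00287). Its partner, the small chain, which plants encode in the nucleus (TRINITY_DN1599_c0_g1), had 845, 832 and 786 CPM in the exponential libraries and 1633, 1701 and 1391 CPM in the stationary libraries (log2 fold change 0.94 ± 0.18, FDR 0.0235), with replicate 3 the lowest of the stationary libraries. These were the 2 called of 12 Calvin cycle genes, whose median was 0.23. The large chain's call held without each library in turn. That of the small chain was lost without marine exponential 1, 2 or 3 or marine stationary 1 or 2 (FDR up to 0.107), that of D1 without marine exponential 1 or 3 (FDR up to 0.06), CP47 without marine exponential 1 or 2 (FDR up to 0.0717), CP43 without marine exponential 1, 2 or 3 (FDR up to 0.0906) and cytochrome b559 without marine exponential 1, 2 or 3, marine stationary 1 or 2, freshwater exponential 2 or 3 or freshwater stationary 1 (FDR up to 0.146).

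Mitochondrial-genome products did not all move one way. Of 18 tested genes, again a list made after values were seen, 4 were higher and 0 lower, and 6 had no count in any exponential library and passed the filter through the stationary libraries. The group summed to 223 to 233 CPM in exponential libraries and to 180.0, 222 and 369.8 CPM in stationary replicates 1, 2 and 3, so replicates 1 and 2 were not above the exponential range. In all of these libraries but stationary replicate 3, most of this sum was chain 5 of NADH-ubiquinone oxidoreductase (TRINITY_DN440_c1_g1), part of respiratory complex I, which had 219.9, 217 and 228 CPM in the exponential libraries and 133, 130.0 and 179 CPM in the stationary libraries. All stationary libraries were below the exponential ones, and the gene was not called (log2 fold change -0.59 ± 0.17, FDR 0.136). Without replicate 3 it was called lower, at -0.73 with an FDR of 0.0357. The genes called higher were at low exponential levels. Subunit 1 of cytochrome c oxidase (TRINITY_DN3555_c0_g3), the terminal enzyme of respiration, had 0.727, 1.57 and 0.604 CPM in the exponential libraries and 11.4, 20.4 and 43.3 CPM in the stationary libraries (log2 fold change 4.68 ± 0.61, FDR 0.00465). ATP synthase subunits 9 (TRINITY_DN8109_c0_g2) and alpha (TRINITY_DN8109_c0_g5), from 1 assembly component, went from 1.78, 1.81 and 2.42 to 8.72, 15.8 and 46.03 CPM (log2 fold change 3.55 ± 0.59, FDR 0.0138) and from 0.404, 0.907 and 1.04 to 8.08, 11.8 and 26.3 CPM (log2 fold change 4.28 ± 0.69, FDR 0.0119). Exponential levels of all 3 lay between 0.404 and 2.42 CPM, and stationary replicate 3 was highest in each. The oxidase held without each library, while subunit 9 was lost without marine exponential 1, 2 or 3 (FDR up to 0.0666) and subunit alpha without marine exponential 2 (FDR up to 0.0527). The other 41 members of the respiratory chain list had 0 higher and 2 lower and a median of -0.21, and summed to 4607 to 4740 CPM in exponential and 3826 to 3938 CPM in stationary libraries.

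A pair of other transcripts moved with the organelle products. The ART2-like gene above was called higher (log2 fold change 2.48 ± 0.51, FDR 0.0358). A gene with a hit to I-SceI, an endonuclease that yeast encodes in an intron of mitochondrial ribosomal RNA, had 51.6, 49.3 and 51.9 CPM in the exponential libraries and 378, 513 and 1296 CPM in the stationary libraries (TRINITY_DN2077_c0_g3, log2 fold change 3.84 ± 0.44, FDR 0.00249). In both, replicate 3 was the highest stationary library by more than 2-fold. The libraries were made from poly(A)-selected RNA, and the part of selection or of RNA quality in these increases was not tested. The call of the I-SceI-like gene held without each library, and the ART2-like call was lost without marine exponential 1, 2 or 3, freshwater exponential 2 or freshwater stationary 1 or 3 (FDR up to 0.141).

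**Figure D3:**
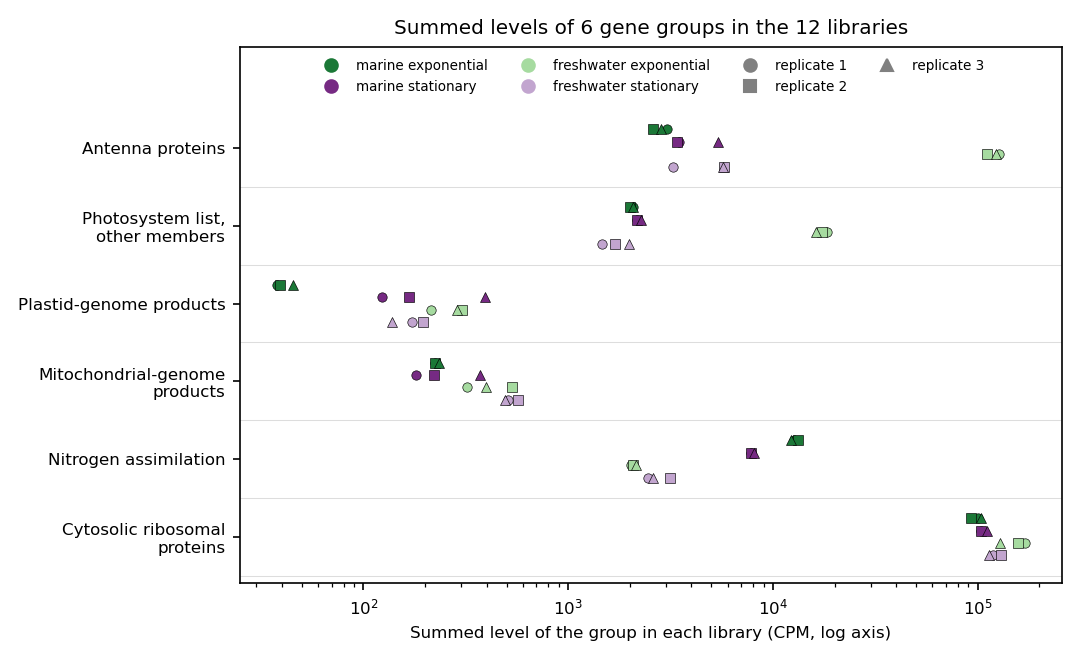
Summed level of 6 gene groups in each of the 12 libraries (CPM, log axis), with colours for the 4 groups and shapes for replicates. Plastid-genome products move from 38.0 to 45.6 CPM in marine exponential to 123 to 395 CPM in marine stationary libraries, while the other photosystem members stay between 2008 and 2258 CPM in both. In freshwater the antenna sum is 111648 to 127245 CPM in exponential and 3262 to 5783 CPM in stationary libraries.

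Few genes of pigment synthesis were called. Of 24 chlorophyll biosynthesis genes, 0 were called in either direction by edgeR, with 1 lower at an unadjusted p under 0.05 and 1 lower by DESeq2. Of 9 carotenoid genes, 0 were higher and 2 lower, with a median of 0.05. DESeq2 called 2 higher and 2 lower, and without replicate 3 edgeR called 1 higher and 2 lower. The 15-cis-zeta-carotene isomerase (TRINITY_DN2412_c0_g1), an early step on the way to lycopene, had 94.1, 88.6 and 90.4 CPM in the exponential libraries and 8.72, 7.84 and 21.3 CPM in the stationary libraries. It was 7.23-fold lower, with replicate 3 at more than 2 times the other stationary libraries but still far below the exponential ones (log2 fold change -2.85 ± 0.37, FDR 0.00447). Zeaxanthin epoxidase (TRINITY_DN1658_c0_g1), which converts zeaxanthin to violaxanthin, had 830.3, 871 and 831 CPM in the exponential libraries and 267, 268 and 482 CPM in the stationary libraries. The groups did not overlap, and replicate 3 fell least (log2 fold change -1.32 ± 0.22, FDR 0.013). Both calls held without each library in turn, a check that keeps the other libraries of a shared stem.

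Nitrogen uptake and reduction divided the stationary libraries. Nitrate reductase (TRINITY_DN580_c1_g1) had 8609, 9126 and 8243 CPM in the exponential libraries and 2099.8, 2157 and 5191 CPM in the stationary libraries. Replicates 1 and 2 were the lowest and replicate 3 lay between them and the exponential libraries, without overlap of the groups (log2 fold change -1.46 ± 0.38, FDR 0.0895). Without replicate 3 the log2 fold change was -1.998 with an FDR of 0.00419. An ammonium transporter 1 member 3 gene (TRINITY_DN456_c1_g1) had 238, 239 and 228 CPM in the exponential libraries and 1481, 1427 and 257 CPM in the stationary libraries. It was high in replicates 1 and 2, and replicate 3 lay just above the exponential range (log2 fold change 2.17 ± 0.49, FDR 0.0518). Without replicate 3 it was 2.66 with an FDR of 4.04e-05.

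Other genes of the pathway, picked after their values were seen, showed that split. DUR3 (TRINITY_DN139_c0_g2), a urea symporter, had 419.7, 427 and 413 CPM in the exponential libraries and 907, 882 and 259 CPM in the stationary libraries, so that replicate 3 was below the exponential libraries and replicates 1 and 2 above them (log2 fold change 0.70 ± 0.36, FDR 0.401). Without replicate 3 its value was 1.12 with an FDR of 0.0011, and with replicate 3 as the only stationary library the log2 fold change was -0.74. A probable peptide/nitrate transporter (TRINITY_DN702_c0_g1) had 142, 132 and 141 CPM in the exponential libraries and 347, 345 and 149.9 CPM in the stationary libraries (log2 fold change 1.02 ± 0.26, FDR 0.0762), and 1.35 with an FDR of 9.86e-05 without replicate 3. Glutamate dehydrogenase A (TRINITY_DN224_c1_g1), which links ammonium and glutamate, had 251, 264 and 247 CPM in the exponential libraries and 89.7, 91.3 and 209 CPM in the stationary libraries (log2 fold change -0.97 ± 0.35, FDR 0.273), and -1.46 with an FDR of 0.0203 without replicate 3. Over the list of 15 nitrogen genes, edgeR called 0 in either direction with all libraries, 2 were higher and 4 lower at an unadjusted p under 0.05, DESeq2 called 2 higher and 2 lower, and 3 were higher and 3 lower without replicate 3. The list summed to 12288 to 13271 CPM in exponential and 7777 to 8063 CPM in stationary libraries. Whether replicates 1 and 2 or replicate 3 stand closer to the condition was not tested.

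A pair of genes of molybdenum supply was low in all 3 stationary libraries. Molybdate transporter 1 (TRINITY_DN434_c1_g1), which brings in the metal of nitrate reductase, had 255, 253 and 270.1 CPM in the exponential libraries and 56.2, 57.4 and 68.4 CPM in the stationary libraries. All stationary libraries were low and close together, 4.28-fold under the exponential mean (log2 fold change -2.10 ± 0.16, FDR 0.000363). GTP 3',8-cyclase (TRINITY_DN1382_c0_g1), the first step of molybdenum cofactor synthesis, had 504, 501 and 514 CPM in the exponential libraries and 141, 138 and 239.8 CPM in the stationary libraries (log2 fold change -1.55 ± 0.26, FDR 0.0135). The transporter's call held without each library, and that of the cyclase was lost without marine stationary 1 or 2 (FDR up to 0.0558). Of 7 genes of molybdenum uptake and cofactor synthesis, a list made after values were seen, these 2 were lower, 0 were higher and the median was -0.39.

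Several enzymes at branch points of carbon use fell. Plastid glucose-6-phosphate dehydrogenase (TRINITY_DN769_c0_g1), the entry of the oxidative pentose phosphate pathway and a source of NADPH, had 1522, 1559 and 1536 CPM in the exponential libraries and 319, 321 and 463 CPM in the stationary libraries. It was 4.19-fold lower without overlap (log2 fold change -2.07 ± 0.20, FDR 0.000736). A gene with a hit to formate acetyltransferase (TRINITY_DN1348_c0_g1), which splits pyruvate into acetyl-CoA and formate in fermentation, had 1077, 1098 and 1061 CPM in the exponential libraries and 124, 123 and 347 CPM in the stationary libraries. Replicate 3 kept nearly 3 times the level of the others but stayed far below exponential libraries (log2 fold change -2.45 ± 0.40, FDR 0.0124). Citrate synthase (TRINITY_DN865_c0_g1), the entry enzyme of the tricarboxylic acid cycle, had 524, 491 and 523 CPM in the exponential libraries and 190.3, 185 and 272 CPM in the stationary libraries (log2 fold change -1.25 ± 0.19, FDR 0.00948). Alternative oxidase (TRINITY_DN728_c0_g1), a respiratory bypass that makes no proton gradient, had 502, 503 and 500.2 CPM in the exponential libraries and 243, 239 and 298 CPM in the stationary libraries (log2 fold change -0.95 ± 0.12, FDR 0.00447). All 4 calls held without each library in turn.

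The pathways around these genes mostly did not pass the test. In glycolysis 0 of 40 were higher and 2 lower, with a median of -0.02. These were cytosolic glucose-6-phosphate isomerase (TRINITY_DN2078_c0_g2, log2 fold change -0.99 ± 0.13, FDR 0.00513) and plastid triosephosphate isomerase (TRINITY_DN358_c0_g1, log2 fold change -1.79 ± 0.32, FDR 0.0194), the latter from 73.4, 73.6 and 76.8 to 13.7, 14.8 and 36.4 CPM. The isomerase of glucose phosphate held without each library, and the triose enzyme was lost without marine exponential 3 or marine stationary 1 or 2 (FDR up to 0.0591). In the tricarboxylic acid and glyoxylate cycle 0 of 22 were higher and citrate synthase was the 1 lower, with a median of -0.06.

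Single enzymes of starch synthesis and of starch breakdown fell. Of 12 synthesis genes 0 were higher and 2 lower, and of 11 degradation genes 0 were higher and 3 lower, with medians of -0.21 and -0.31, which were 0.01 and -0.21 without replicate 3. The small subunit of ADP-glucose pyrophosphorylase (TRINITY_DN86_c0_g1), the committed step of synthesis, had 557, 593 and 551 CPM in the exponential libraries and 249.8, 259 and 395 CPM in the stationary libraries (log2 fold change -0.91 ± 0.17, FDR 0.0199). Alpha-glucan water dikinase (TRINITY_DN219_c0_g3), which phosphorylates the granule surface so that it can be broken down, had 887, 939 and 883 CPM in the exponential libraries and 448, 449 and 494 CPM in the stationary libraries (log2 fold change -0.96 ± 0.13, FDR 0.00481). Stationary libraries of the dikinase were alike, while replicate 3 of the pyrophosphorylase lay between the other stationary libraries and the exponential ones. Alpha-amylase (TRINITY_DN2872_c1_g1), which cuts within the glucan chain, was lowest in replicate 3, from 142, 137 and 145 to 58.9, 59.7 and 40.3 CPM (log2 fold change -1.42 ± 0.20, FDR 0.00621). The glucanotransferase DPE1 (TRINITY_DN6732_c0_g2), which works on the short chains that amylases release, went from 44.6, 46.5 and 44.5 to 11.98, 12.6 and 16.8 CPM (log2 fold change -1.71 ± 0.17, FDR 0.000815). The pyrophosphorylase call was lost without marine exponential 2 or marine stationary 1 or 2 (FDR up to 0.061), and those of the dikinase, the amylase and DPE1 held without each library.

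Lipid genes moved in small numbers. Of 19 fatty acid synthesis genes 0 were higher and 4 lower, with a median of -0.12. A 3-oxoacyl synthase gene (TRINITY_DN1857_c0_g1), a chain-extending step with a hit to the Arabidopsis mitochondrial enzyme, had 112, 122 and 107 CPM in the exponential libraries and 36.2, 36.97 and 54.8 CPM in the stationary libraries (log2 fold change -1.41 ± 0.17, FDR 0.00287). The stationary libraries were all low, and this call held without each library. In glycerolipid assembly 1 of 20 was higher and 1 lower. SQD2 (TRINITY_DN4939_c0_g1), which makes the sulfur-containing lipid of plastid membranes, rose from 5.09, 5.11 and 4.49 to 26.2, 30.7 and 16.7 CPM (log2 fold change 2.32 ± 0.51, FDR 0.0458). Digalactosyldiacylglycerol synthase 1 (TRINITY_DN1784_c0_g1), which makes a main galactolipid of those membranes, fell from 177, 184 and 178 to 122, 120.1 and 114 CPM (log2 fold change -0.60 ± 0.10, FDR 0.0119). SQD2 was lost without marine exponential 1, 2 or 3, marine stationary 1 or 2, freshwater exponential 3 or freshwater stationary 1, 2 or 3 (FDR up to 0.182), and the galactolipid synthase without marine exponential 2 or 3 (FDR up to 0.056). In fatty acid degradation 0 of 14 were higher and 1 lower.

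Genes of cytosolic ribosomes did not pass the test in either direction. Of 126 tested, edgeR called 0, 4 were higher and 0 lower at an unadjusted p under 0.05, DESeq2 called 4 higher and 0 lower, and the median was 0.05. They summed to 92891 to 103940 CPM in exponential and 103291 to 111487 CPM in stationary libraries. Of translation factors, 0 of 64 were higher and 2 lower with a median of -0.31, and without stationary replicate 3 there were 9 lower. Elongation factor 1-alpha (TRINITY_DN794_c0_g3) had 11246, 11166 and 11451 CPM in the exponential libraries and 9369, 9377 and 10560.4 CPM in the stationary libraries and was not called (log2 fold change -0.21 ± 0.27, FDR 0.854). Subunit C of initiation factor 3 (TRINITY_DN261_c0_g1), part of the scaffold that loads ribosomes on messenger RNA, fell from 101, 118 and 135 to 78.1, 73.8 and 64.7 CPM (log2 fold change -0.71 ± 0.13, FDR 0.0203), a call lost without marine exponential 2 or 3 or marine stationary 1 or 2 (FDR up to 0.123). Of 27 plastid and mitochondrial ribosomal proteins 0 were higher and 2 lower, while the median was 0.44 and DESeq2 called 4 higher and 3 lower. The list also holds organelle-genome products at low levels, so no support is drawn from its median. Plastid L5 (TRINITY_DN18527_c0_g3), for example, went from 0.242, 0 and 0.259 to 0.780, 0.763 and 2.07 CPM and was not called. Plastid protein L3-1 (TRINITY_DN6489_c0_g2) fell from 113, 120.0 and 138 to 59.1, 49.7 and 62.5 CPM (log2 fold change -1.11 ± 0.15, FDR 0.00569), a call that held without each library. Of 35 ribosome biogenesis genes, edgeR called 0, with 1 higher and 2 lower at an unadjusted p under 0.05 and by DESeq2.

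Among stress genes, as in all lists, the share called is to be read against that of named genes, from which the lists were drawn. Of 4819 named genes, 39 were higher and 203 lower, 5.02% called in either direction. Over all tested genes, with or without a name, 0.407% were higher and 1.79% lower. Of 53 heat shock and chaperone genes edgeR called 0, with 5 higher and 3 lower at an unadjusted p under 0.05 and 4 higher and 1 lower by DESeq2. Of 50 antioxidant genes 2 were higher and 1 lower. Glutathione peroxidase 2 (TRINITY_DN33_c1_g1), which reduces lipid peroxides, had 33.6, 32.7 and 32.3 CPM in the exponential libraries and 122, 126 and 137 CPM in the stationary libraries. It was 3.91-fold higher with all 3 libraries close together (log2 fold change 1.97 ± 0.16, FDR 0.000363), and the call held without each library. Thioredoxin reductase 2 (TRINITY_DN23_c0_g2), which keeps thioredoxins reduced, fell from 114, 122 and 118 to 65.2, 66.9 and 69.4 CPM (log2 fold change -0.81 ± 0.15, FDR 0.0194), and was lost without marine exponential 2 or 3 or marine stationary 1 or 2 (FDR up to 0.064). Among 51 proteasome and autophagy genes 0 were higher and 1 lower: ATG101 (TRINITY_DN1836_c0_g1), part of the complex that starts autophagy, fell from 134, 133 and 128 to 52.2, 52.5 and 55.3 CPM (log2 fold change -1.30 ± 0.16, FDR 0.00317), a call that held without each library. Without stationary replicate 3, 8 of that list were lower.

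Genes of solutes and ion transport gave few calls. Of 20 compatible solute genes 0 were higher and 1 lower: a trehalose-phosphate synthase (TRINITY_DN1924_c0_g1) fell from 129, 133 and 128 to 84.8, 85.7 and 77.1 CPM (log2 fold change -0.65 ± 0.11, FDR 0.0143), and was lost without marine exponential 1, 2 or 3 or marine stationary 1 or 2 (FDR up to 0.088). Of 35 ion transport genes 0 were higher and 3 lower, with a median of -0.33, and 8 were lower without replicate 3. A plasma membrane calcium pump (TRINITY_DN594_c3_g2) had 414, 413 and 402 CPM in the exponential libraries and 174, 171 and 280.2 CPM in the stationary libraries. Replicate 3 lay between the other stationary libraries and the exponential ones (log2 fold change -0.97 ± 0.21, FDR 0.0405), and the call was lost without marine exponential 1, 2 or 3, marine stationary 1 or 2, freshwater exponential 3 or freshwater stationary 1 or 3 (FDR up to 0.125). A potassium transporter with a hit to bacterial kup (TRINITY_DN590_c0_g1), outside that list, had 82.4, 89.9 and 84.5 CPM in the exponential libraries and 36.9, 37.9 and 34.3 CPM in the stationary libraries. Its stationary libraries were alike (log2 fold change -1.23 ± 0.10, FDR 0.000363), and the call held without each library. Of 22 phosphate and sulfur acquisition genes edgeR called 0, with 2 higher and 5 lower at an unadjusted p under 0.05 and 2 higher and 2 lower by DESeq2.

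**Figure D4:**
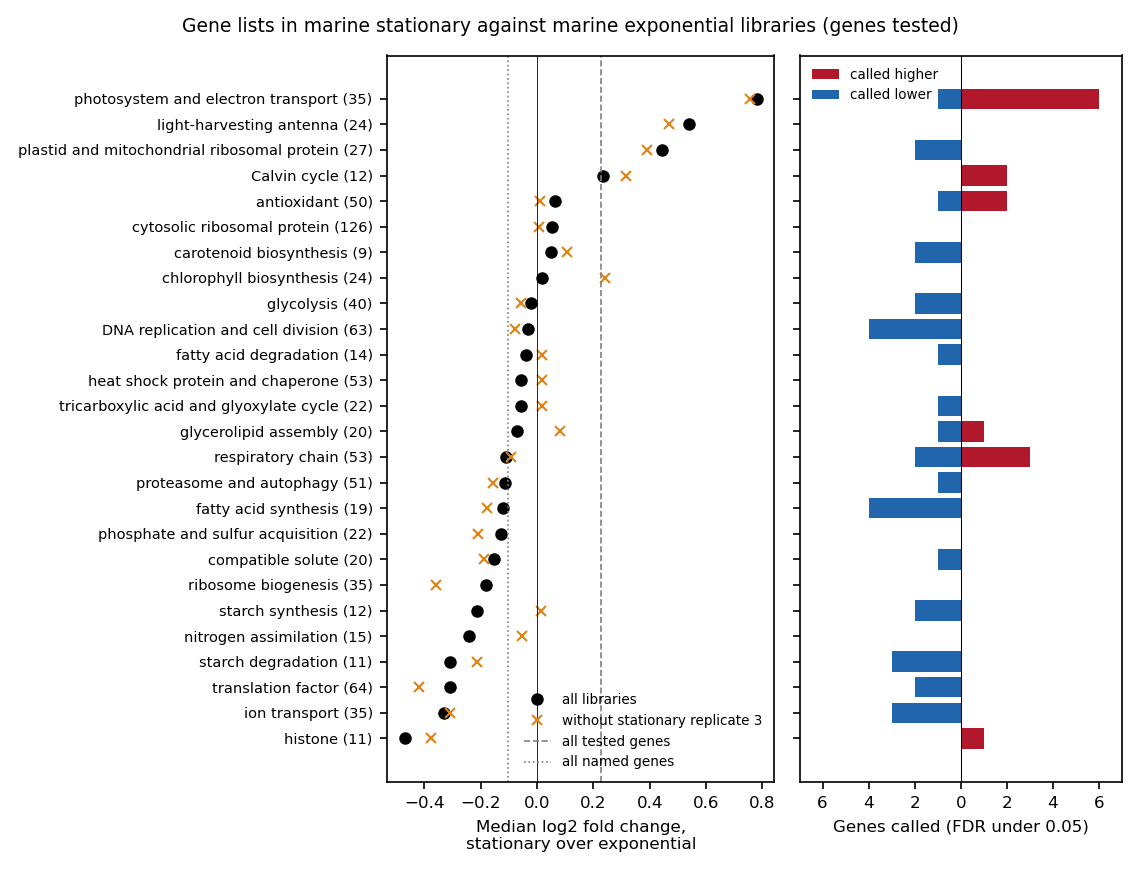
Left, the median log2 fold change of each of 26 gene lists, stationary over exponential in marine medium, with all libraries (dots) and without stationary replicate 3 (crosses); dashed and dotted lines give the medians of all tested and of all named genes. Right, the number of genes called higher (red) and lower (blue) in each list, with the number tested in brackets. The photosystem list has the highest median, 0.78, and 6 genes called higher, and the lists of DNA replication and fatty acid synthesis have 4 called lower each.

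Further large changes touched single enzymes and regulators. Probable protein transport Sec1a (TRINITY_DN263_c0_g1), which guides vesicle fusion, had 1836, 1729 and 1900.2 CPM in the exponential libraries and 435, 446 and 366 CPM in the stationary libraries (log2 fold change -2.13 ± 0.18, FDR 0.000537). Phosphomethylpyrimidine synthase (TRINITY_DN507_c0_g1), which makes the pyrimidine part of thiamine, had 395, 412 and 390.4 CPM in the exponential libraries and 85.2, 82.05 and 113 CPM in the stationary libraries (log2 fold change -2.10 ± 0.16, FDR 0.000363). In both, no stationary library reached an exponential one. Adenosylhomocysteinase (TRINITY_DN98_c0_g1), which clears the by-product of methylation, had 2194, 2245 and 2190.4 CPM in the exponential libraries and 335, 342 and 1038 CPM in the stationary libraries (log2 fold change -1.95 ± 0.44, FDR 0.0494), with replicate 3 at about 3 times the other stationary libraries. A kinase with a hit to TOUSLED (TRINITY_DN425_c0_g1) had 10945, 10983 and 10992 CPM in the exponential libraries and 3289, 3282 and 5837 CPM in the stationary libraries (log2 fold change -1.41 ± 0.31, FDR 0.0481), again with replicate 3 in between.

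Fewer single genes rose. A protein similar to terminal ear1 (TRINITY_DN760_c0_g2), an RNA-binding regulator of plant shoots, had 12.4, 6.84 and 5.78 CPM in the exponential libraries and 62.3, 64.4 and 85.9 CPM in the stationary libraries (log2 fold change 3.08 ± 0.36, FDR 0.00287). Its assembly component, with 2 tested genes, showed no such rise when summed (log2 fold change 0.02, FDR 0.995). How reads were split between the genes of that component was not tested. Apyrase (TRINITY_DN784_c0_g1), which removes phosphates from nucleotides, had 76.6, 78.5 and 81.97 CPM in the exponential libraries and 186, 184 and 169.8 CPM in the stationary libraries (log2 fold change 1.19 ± 0.14, FDR 0.00249). In both, all stationary libraries were above all exponential ones. A further chitin synthase 2 gene (TRINITY_DN4857_c0_g1) fell from 475, 510.2 and 491 to 223, 221 and 343 CPM (log2 fold change -0.91 ± 0.17, FDR 0.0237), less than the chitin synthase gene described first. The calls of Sec1a, the thiamine enzyme, terminal ear1 and apyrase held without each library. Adenosylhomocysteinase was lost without marine exponential 1, 2 or 3, marine stationary 1 or 2, freshwater exponential 1, 2 or 3 or freshwater stationary 1, 2 or 3 (FDR up to 0.146), the TOUSLED-like kinase without marine exponential 1, 2 or 3, marine stationary 1 or 2, freshwater exponential 1 or 2 or freshwater stationary 1 or 3 (FDR up to 0.168), and this chitin synthase without marine exponential 1, 2 or 3 or marine stationary 1 or 2 (FDR up to 0.0861).

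The change in marine medium differed from the change over the same days in freshwater. In freshwater 2018 genes were higher and 1408 lower in stationary phase, 8.64% and 6.03% of those tested. The difference between the changes, marine minus freshwater, was called in 841 genes in favour of marine and 1594 against it, 3.60% and 6.83%. The comparisons share no library, and across the 5717 well expressed genes the correlation of the changes was 0.00331, a description with no test since genes are not independent. The median absolute log2 change was 0.292 in marine and 0.614 in freshwater medium. Of the 418 genes lower in marine stationary phase, 106 were lower and 91 higher in freshwater, and of the 95 higher, 29 were higher and 16 lower.

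Antenna genes were mostly lower in freshwater stationary phase and were not called in marine medium. In freshwater 20 of the 24 antenna genes were lower and 2 higher in stationary phase, and the difference between media was called higher in marine for 19 and lower for 2. Chlorophyll a-b binding protein 3 had 58793 to 68917 CPM in freshwater exponential and 63.4 to 181 CPM in freshwater stationary libraries. The difference in its log2 change was 9.36 ± 0.70, FDR 3.06e-05. CP29 (TRINITY_DN297_c0_g2), a minor antenna of photosystem II, went in marine cultures from 279, 268 and 289 to 393, 387 and 442 CPM (log2 fold change 0.55 ± 0.15, FDR 0.114). It had 2475 to 3072 CPM in freshwater exponential and 53.1 to 74.4 CPM in freshwater stationary libraries, a difference of 5.90 ± 0.23, FDR 6.35e-07. Photosystem I subunit II (TRINITY_DN3598_c0_g1), where ferredoxin docks, went in marine cultures from 175, 158 and 161 to 197, 193 and 244 CPM (log2 fold change 0.36 ± 0.14, FDR 0.289), with a difference of 5.05 ± 0.20, FDR 6.35e-07. A photosystem I antenna protein 5 gene (TRINITY_DN1819_c1_g2) went from 20.1, 18.1 and 18.1 to 22.5, 22.5 and 23.8 CPM (log2 fold change 0.29 ± 0.14, FDR 0.398), with a difference of 5.39 ± 0.21, FDR 6.35e-07.

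Glutathione peroxidase 2 had the lowest FDR for this difference among the genes named here. It rose in marine medium, while it had 6371 to 7521 CPM in freshwater exponential and 24.4 to 31.7 CPM in freshwater stationary libraries, a difference of 9.97 ± 0.25, FDR 2.43e-08. In the other direction, DPE1 had 24.5 to 28.7 CPM in freshwater exponential and 61.1 to 80.4 CPM in freshwater stationary libraries, a difference of -3.17 ± 0.23, FDR 2.84e-05, so that it fell in marine and rose in freshwater stationary phase. The kup-like transporter had 28.5 to 31.3 CPM in freshwater exponential and 56.9 to 60.6 CPM in freshwater stationary libraries, with a difference of -2.23 ± 0.14, FDR 9.54e-06. STN8 (TRINITY_DN230_c0_g1), a kinase of photosystem II proteins, fell in marine medium from 41.4, 40.4 and 40.98 to 26.5, 26.1 and 26.3 CPM (log2 fold change -0.64 ± 0.13, FDR 0.0357). It had 8.79 to 10.9 CPM in freshwater exponential and 54.6 to 67.5 CPM in freshwater stationary libraries, with a difference of -3.28 ± 0.19, FDR 6.22e-06. The marine call of STN8 was lost without marine exponential 1, 2 or 3, marine stationary 1 or 2 or freshwater stationary 3 (FDR up to 0.149).

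A pair of further genes with clear differences was not called in marine medium. A gene with a hit to transcription factor BOA (TRINITY_DN828_c0_g1), part of the plant clock, went in marine cultures from 251, 260.4 and 248 to 156, 158 and 223 CPM (log2 fold change -0.50 ± 0.15, FDR 0.148), and had 28.2 to 36.00 CPM in freshwater exponential and 159.9 to 184 CPM in freshwater stationary libraries, a difference of -2.96 ± 0.21, FDR 2.61e-05. A dipeptidase with a hit to yeast DUG1 (TRINITY_DN1150_c1_g1), which breaks down glutathione, went in marine cultures from 48.1, 49.4 and 47.7 to 40.1, 41.9 and 43.6 CPM (log2 fold change -0.21 ± 0.17, FDR 0.619), and had 23.2 to 24.6 CPM in freshwater exponential and 164 to 284 CPM in freshwater stationary libraries, a difference of -3.35 ± 0.25, FDR 3.06e-05. Lists of protein turnover and transport differed as well: in freshwater 20 of 51 proteasome and autophagy genes were higher and 3 lower, with a difference called against marine for 10 and in favour for 1. For ion transport 12 of 35 were higher and 4 lower in freshwater, with 12 differences against marine and 1 in favour. In starch degradation 4 of 11 were higher and 1 lower in freshwater, with 5 differences against marine and 1 in favour. Other lists leaned towards marine, though 0 of their genes were called higher in marine stationary phase. For 22 genes of the tricarboxylic acid and glyoxylate cycle, 14 differences were in favour of marine and 0 against. Such counts were 11 and 2 of 40 for glycolysis and 8 and 0 of 27 for plastid and mitochondrial ribosomal proteins. They were 7 and 1 of 24 for chlorophyll biosynthesis and 6 and 1 of 19 for fatty acid synthesis. In freshwater these lists had mostly lower genes. In that order, 16, 14, 11, 12 and 12 were lower there and 1, 4, 0, 1 and 0 higher.

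**Figure D5:**
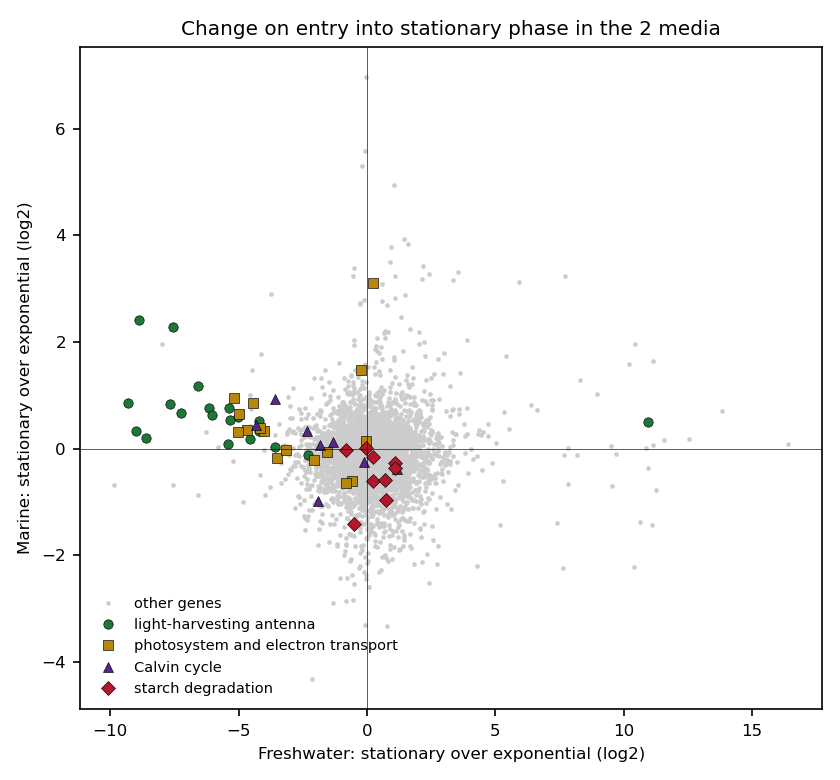
Each point is 1 gene with a mean log2 level of at least 4 in marine libraries, with its log2 fold change of stationary over exponential in freshwater (horizontal axis) and in marine medium (vertical axis). Coloured symbols mark 4 gene lists. Most antenna genes and many photosystem genes lie to the left, lower in freshwater stationary phase, and near or above 0 on the marine axis, with 1 antenna gene far to the right.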

How the data were processed

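Poly(A)-selected RNA of 12 libraries was sequenced, per the labels' protocols, with a kit that marks no strand. The deposited matrix holds expected counts per assembled gene, whose fractions come from reads shared among transcripts. RSEM 1.3.2, Bowtie and DESeq2 1.20.0 are named in the submitters' processing notes. The authors' deposited comparison table gives group mean signal, log2 fold changes and p-values, and was used only to match the authors' scaling.

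Counts were rounded, and genes with 15 or more counts summed over each medium's 6 libraries were kept. TMM scaling and edgeR 4.0.16 in R 4.3.3 were used in 1 quasi-likelihood fit over 4 groups without a block, with Benjamini-Hochberg adjustment (the FDR). DESeq2 1.42.0 was an alternative, and the others tried were scaling, filters, libraries left out or summed, marine libraries alone and summed assembly components. The CPM of a figure's log2 scale had 0.5 added. Fits were tested on simulated data of 23351 genes. Marine libraries held 10271692 to 11201764 counts, and statistics cover counting error and the spread between samples only. Lineages came from the genus of a hit with an E-value of at most 1e-10.

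Genes and the 26 lists were chosen with earlier results of these data known. Named genes were, per list, the 2 called genes with the smallest p, well expressed and without overlap of groups, or the most abundant member, plus the 8 highest and 8 lowest fold changes, the 10 most abundant genes, and the 5 clearest differences between media per direction, given in part. Others named were chosen after their values were seen. Whether equal replicate numbers pair libraries was looked at: the deviations of same-numbered marine libraries had correlations of -0.0119, 0.0253 and -0.0429. With 3 libraries in each group, these values cannot decide it.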

Additional observations from a re-analysis of the deposited data

Results flagged for a closer look

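Each value here was flagged because the change from exponential to stationary phase in marine medium differed from that in freshwater at an FDR under 0.05 in edgeR's test of the difference itself. That was so for 841 genes in favour of marine medium and 1594 against it. The values for genes are the marine minus the freshwater log2 fold change, with its standard error and FDR, from 3 libraries in each of 4 groups.

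The genes of photosynthesis named in this paragraph lay on the marine side. Over the lists, 19 differences were in favour of marine and 2 against it for antenna genes. Such counts were 20 and 0 for the photosystem list and 6 and 1 for the Calvin cycle, and STN8, given below, lay against marine. For chlorophyll a-b binding protein 3 the difference was 9.36 ± 0.70, FDR 3.06e-05. The difference was 5.90 ± 0.23, FDR 6.35e-07 for CP29, 9.82 ± 0.85, FDR 7.53e-05 for the type 2 member 1A gene and 11.30 ± 0.92, FDR 4.94e-05 for the LHCII type I gene. For photosystem I it was 5.39 ± 0.21, FDR 6.35e-07 for antenna protein 5, 5.05 ± 0.20, FDR 6.35e-07 for subunit II, 6.14 ± 0.31, FDR 2.09e-06 for subunit XI and 5.29 ± 0.27, FDR 2.09e-06 for subunit O. For photosystem II it was 2.87 ± 0.68, FDR 0.0217 for D1, 4.78 ± 0.75, FDR 0.00234 for CP47, 4.28 ± 0.66, FDR 0.00224 for CP43 and 6.32 ± 1.07, FDR 0.00369 for cytochrome b559. The Rubisco chains had 3.68 ± 0.46, FDR 0.00068 for the large and 4.53 ± 0.26, FDR 5.58e-06 for the small chain.

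Some genes of the mitochondrion and single enzymes followed on that side. The difference was 3.04 ± 0.76, FDR 0.029 for cytochrome c oxidase subunit 1, 3.36 ± 0.78, FDR 0.02 for ATP synthase subunit 9 and 2.25 ± 0.56, FDR 0.0289 for the I-SceI-like gene. It was 9.97 ± 0.25, FDR 2.43e-08 for glutathione peroxidase 2, 1.70 ± 0.22, FDR 0.000746 for plastid protein L3-1, 2.49 ± 0.56, FDR 0.0169 for the terminal ear1 homolog and 1.37 ± 0.20, FDR 0.00153 for apyrase.

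The carbon and pigment enzymes named below lay on the other side, though several of their lists leaned towards marine. Calls in favour of marine and against it numbered 14 and 0 in the tricarboxylic acid and glyoxylate cycle and 11 and 2 in glycolysis. They numbered 6 and 1 in fatty acid synthesis and 7 and 1 in chlorophyll biosynthesis, but 1 and 5 in starch degradation and 1 and 2 in carotenoid biosynthesis. In marine medium itself, 0 genes of these lists were called higher in stationary phase. The difference was -3.06 ± 0.27, FDR 9.03e-05 for glucose-6-phosphate dehydrogenase, -0.69 ± 0.19, FDR 0.04 for glucose-6-phosphate isomerase, -2.40 ± 0.54, FDR 0.0173 for formate acetyltransferase and -1.91 ± 0.17, FDR 9.89e-05 for alternative oxidase. In starch metabolism it was -1.50 ± 0.23, FDR 0.00228 for the pyrophosphorylase, -1.71 ± 0.18, FDR 0.000225 for the dikinase and -3.17 ± 0.23, FDR 2.84e-05 for DPE1. It was -1.19 ± 0.23, FDR 0.00821 for the 3-oxoacyl synthase, -2.06 ± 0.49, FDR 0.023 for the zeta-carotene isomerase and -1.72 ± 0.30, FDR 0.00476 for zeaxanthin epoxidase.

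The nitrogen, division and regulatory genes named below lay on the side against marine too. The difference was -2.67 ± 0.53, FDR 0.00938 for nitrate reductase, -2.79 ± 0.50, FDR 0.0054 for glutamate dehydrogenase A, -2.16 ± 0.22, FDR 0.000207 for molybdate transporter 1 and -2.69 ± 0.36, FDR 0.00103 for GTP 3',8-cyclase. For the abundant gene of chain 5 of NADH-ubiquinone oxidoreductase (TRINITY_DN440_c1_g1) it was -0.87 ± 0.24, FDR 0.0447. It was -2.32 ± 0.58, FDR 0.0296 for the CDC15-like gene, -3.17 ± 0.87, FDR 0.0428 for KIN-14F and -1.16 ± 0.18, FDR 0.0025 for initiation factor 3 subunit C. It was -1.44 ± 0.22, FDR 0.00234 for the thiamine enzyme, -0.79 ± 0.22, FDR 0.0454 for ATG101, -1.74 ± 0.29, FDR 0.00366 for the calcium pump and -2.23 ± 0.14, FDR 9.54e-06 for the kup-like transporter. It was -3.64 ± 0.45, FDR 0.000649 for the TOUSLED-like kinase, -2.15 ± 0.25, FDR 0.000439 for Sec1a, -3.28 ± 0.19, FDR 6.22e-06 for STN8, -2.96 ± 0.21, FDR 2.61e-05 for BOA and -3.35 ± 0.25, FDR 3.06e-05 for DUG1.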

How the results depend on the processing

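Against 95 higher and 418 lower genes in marine stationary phase, and 841 and 1594 for the difference between media, the counts moved by more than 1.5 times as follows. DESeq2 gave 943 and 1027, and 2293 and 2480 for the difference. The authors' scaling gave 1033 lower and 2456 against marine. The marine libraries alone gave 277 lower, 215 of them among the 418. The number called higher there, 97, had not moved, but only 42 of these were among the 95. A minimum of 100 counts gave 204 higher and 1365 in favour of marine, and no filter gave 33 and 224, and 433 and 969. Summed shared-stem libraries gave 0 and 0, and 123 and 322 for the difference, and with DESeq2 495 higher and 1059 against marine. With stationary replicate 3 alone as the stationary sample, assumed to vary like the other groups, 178 were lower, and 500 and 796 differed between media. Leaving out each library gave 30 to 209 higher and 158 to 1030 lower, with 621 to 1327 and 1003 to 1980 for the difference. Whether replicate numbers pair the libraries could not be decided from the correlations given above, with 3 libraries in each group. A replicate block gave 48 higher. The cause of these shifts was not tested.

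The log2 fold change of DUR3 was -0.74 without stationary replicates 1 and 2, against 0.70. As shares of raw counts, log2 ratios of summed levels were 0.179 for cytosolic ribosomal proteins, 0.206 for histones, -0.193 for glycolysis, -0.172 for the respiratory chain, -0.150 for starch synthesis, -0.496 for starch degradation, -0.176 for glycerolipids, -0.610 for nitrogen, -0.0746 for phosphate and sulfur and -0.0412 for heat shock genes. At an E-value of 1e-20, changes in lineage shares were -0.118 points for archaea, 0.00472 for fungi and 4.91 for genes without a hit. A limit of 1e-05 was not run, since no deposited hit was weaker than 9.95e-11.

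Of the values of named genes under the alternatives, 1350 kept their direction and side of the threshold, 393 lost the call, 31 gained it and 1 turned. Depth limits genes near 1 CPM, where a library holds about 10 counts.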
